A study of Homo sapiens with 10 samples.

Results

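The core spliceosome and RNA helicase genes described here are 55 genes. The choice was made by name and not by a rule on measured values, but with earlier results of these data known. The genes encode proteins of the small nuclear ribonucleoproteins (snRNPs), the SF3A and SF3B complexes, the U4/U6.U5 tri-snRNP and the PRPF19 complex. DEAH and DEAD box helicases and proteins of the THO and exon junction complexes are also among them. They are 55 of 63152 gene identifiers in the expression tables, and 54 had values. RBM8A, an exon junction protein, was listed at 0 under its annotated identifier in every table and has no value here. Poly(A) RNA was measured by RNA-seq in C33A, a human cervical carcinoma cell line deficient in the SWI/SNF ATPases BRG1 and BRM, at 48 h after transient transfection. There were 5 groups of 2 libraries. The control group received pOPRSVI, BRG1-wt received pBJ5-BRG1 and BRG1-mut received pBJ5-BRG1-K798R, which carries the ATPase mutation K798R. BRM-wt received pCG-hBrm, and BRM-mut received pCG-hBrm-K798R. The vector thus differed between control, the BRG1 groups and the BRM groups, and its effect cannot be told apart from that of the ATPase. All groups were cells of 1 line, the ATPases were expressed from plasmids, and nothing in the labels says that the 2 libraries of a group came from separate cultures, so p-values measure the spread between these libraries, which may be technical.

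Introns are removed by the spliceosome, which is built anew on each intron. The U1 snRNP pairs with the 5′ splice site, SF1 and the U2AF proteins mark the branch point and the 3′ splice site, and the U2 snRNP with SF3A and SF3B then takes the branch point. The tri-snRNP joins, and ATP-driven helicases remodel the RNA and release the factors. The PRPF19 complex, of which XAB2 is a partner, stabilises the active form, while the THO and exon junction complexes mark the RNA for export and decay. XAB2, DHX15, DHX9, SF3B1 and THOC2 were the members that the study followed with antibodies.

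The expression tables hold, for each comparison, the mean of the normalised counts over 4 libraries. Whole counts per library were recovered from these means, as described under the methods, for 16939 of 16947 genes with a mean of at least 10. The libraries could be assigned to groups but not to replicate numbers, so they are called a (the deeper) and b. The recovered counts summed to between 28635723 and 40279181 a library. The transfected genes followed the labels. SMARCA4, which encodes BRG1, had normalised counts of 4106 and 2589 in the control libraries, 47391 and 48048 in BRG1-wt, and 61020 and 53661 in BRG1-mut. SMARCA2, which encodes BRM, was at 14 and 13 in the control libraries. It was at 191947 and 53794 in BRM-wt a and b, and at 192281 and 101713 in BRM-mut a and b. The transfected gene thus differed several-fold between the 2 BRM-wt libraries. SMARCA4 in the BRM libraries lay between 1653 and 6725. Of the mesenchymal markers, VIM was high in all 10 libraries (10559 to 13875). The others of that list were far lower: COL1A2 at 97.4 to 428, COL1A1 at 3.01 to 83.6, PDGFRB at 12.1 to 63.9 and ACTA2 at 16.1 to 49.6. KRT19, CDH1 and EPCAM of the epithelial list did not exceed 46.4. The other 2 epithelial markers, KRT8 and KRT18, had means of 96.1 and 199 in control, 806 and 1178 in BRG1-wt, 176 and 352 in BRG1-mut, 670.2 and 1019 in BRM-wt, and 80.2 and 313 in BRM-mut. The summed level of the 5 epithelial markers was 233 to 412 in control, 1962 to 2075 in BRG1-wt, 461 to 675 in BRG1-mut, 1240 to 2203 in BRM-wt and 312 to 554 in BRM-mut. Among blood markers, CD3E and HBB were at 0 in every library, CD14 at 1.04 to 16.1 and PTPRC at 1148 to 2038. The part of these markers in the results below was not tested.

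The members were expressed well above most genes in the control cells. Levels between genes were compared as normalised counts per kilobase of the canonical transcript. The median of the 54 members was 1971 per kilobase, against 208 for the 16025 genes with a mean of at least 10 and a known length, and 52 of the 54 members lay above that median. The highest levels were those of SNRPD2, a ring-forming Sm protein (15148 and 12610 per kilobase in control a and b), DDX5, a DEAD box helicase (11789 and 14117 per kilobase), and DHX15, the helicase that takes spent spliceosomes apart (5654 and 6400 per kilobase). SNRPD2 was above DDX5 in control a and below it in control b, so their order was not resolved. DHX15, DDX17, U2AF1, DHX9 and SNRPF had means between 5468 and 6027 per kilobase and overlapped in the same way. The lowest levels were those of ISY1, a PRPF19-associated factor (158 and 110 per kilobase), XAB2 (253 and 99.5 per kilobase) and SF3A2, a subunit of SF3A (344 and 136 per kilobase). The ranges of XAB2 and ISY1 overlapped. Of the exon bases of ISY1, 25.2% are shared with the annotated readthrough gene ISY1-RAB43, and all exon bases of DDX39B lie within a readthrough gene too, so that counts of these genes depend on how the authors counted shared reads.

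Most members varied little between libraries, while a few varied several-fold, also within groups. Of the 54 members, 46 had less than 2-fold between their highest and lowest library. The median was 1.45-fold over the members, beside 1.75-fold over all genes with a mean of at least 10. EIF4A3, the helicase of the exon junction complex, had normalised counts between 5468 and 6169. In contrast, SF3A2 varied 17.9-fold, XAB2 9.44-fold and SNRPB, which encodes the Sm proteins B and B′, 8.19-fold. SF3A2 was at 556 and 219.8 in control, 445 and 633 in BRG1-wt, 1477 and 832 in BRG1-mut, 102 and 1134 in BRM-wt, and 377 and 82.4 in BRM-mut. Its 2 BRG1-mut libraries were above both control libraries, and its 2 BRM-wt libraries lay on either side of them. XAB2 was at 669 and 263 in control, 595 and 748 in BRG1-wt, 1523 and 933 in BRG1-mut, 161 and 1297 in BRM-wt, and 558 and 173 in BRM-mut. SNRPB was at 3061 and 1324 in control, 2270.4 and 3142 in BRG1-wt, 5839.9 and 3899 in BRG1-mut, 738 and 4980.0 in BRM-wt, and 2405 and 713 in BRM-mut. U2AF2, the large U2AF subunit that binds the polypyrimidine tract, had the next largest variation, with 9269 and 4478 in the control libraries, against 3509 and 11641 for BRM-wt. These 4 genes showed the same order of libraries: control a above control b, and BRM-wt b far above BRM-wt a. The plot of all members by library shows these genes as the strongest coloured rows.

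**Figure D1:**
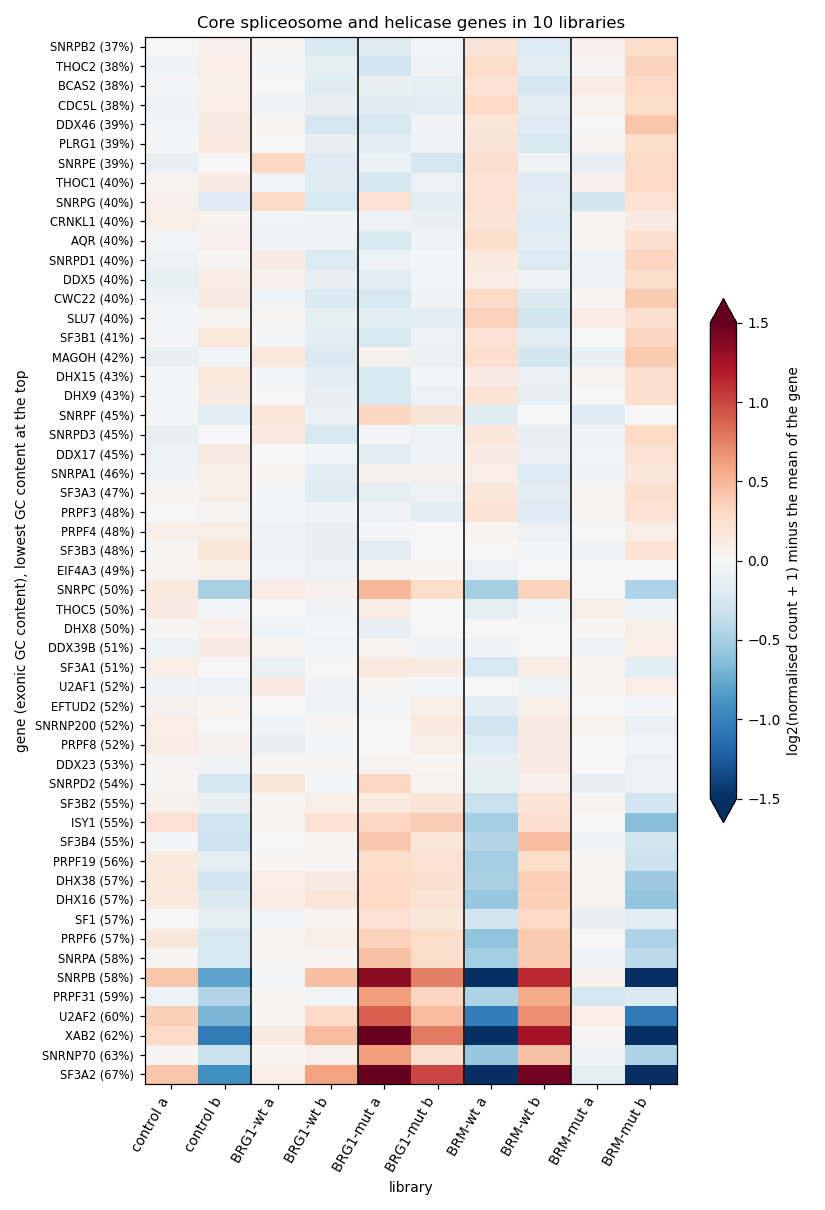
Heat map of the 54 members (rows, ordered by the GC content of the canonical transcript, given in brackets) in 10 libraries (columns), coloured by log2(normalised count + 1) minus the mean of the gene over the libraries. GC-rich members such as SF3A2, XAB2, U2AF2 and SNRPB differ between the 2 control libraries and most between BRM-wt a and b, and AT-rich members such as THOC2 and DDX46 show the opposite colours.

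In most groups the 2 libraries differed in a way that followed GC content, while the 2 BRG1-mut libraries deviated alike. Within the control group, XAB2 was 2.54-fold, SF3A2 2.53-fold, SNRPB 2.31-fold and U2AF2 2.07-fold higher in control a than in control b, and these 4 were the members with more than 2-fold, against 7.55% of all genes with a mean of at least 10. In BRM-wt, 6 members differed more than 2-fold between the libraries, most of all SF3A2, against 22.6% of all genes, and in BRM-mut 4 members did, against 14.2%. In BRG1-wt and BRG1-mut 0 members did, against 3.44% and 3.85%. The GC content of the members ran from 37.1% (SNRPB2) to 66.5% (SF3A2), with a median of 48.9%. Across the 54 members, the deviation of a library from the mean of the gene correlated with GC content with a Spearman coefficient of 0.57 in control a and -0.73 in control b. In BRM-wt the coefficients were -0.91 in library a and 0.90 in library b, and in BRM-mut they were -0.15 and -0.91. In BRG1-wt they were 0.12 and 0.88, and in BRG1-mut 0.83 and 0.85. Over the 16025 genes with a known GC content the coefficients had the same signs, from -0.74 in BRM-mut b to 0.72 in BRG1-mut a. These are coefficients across genes of 1 library, which are not independent replicates, and they are given as a description. The cause of this dependence was not tested.

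No member passed the test in BRG1-wt against control. By limma with Benjamini-Hochberg adjustment, 0 of 54 members had an adjusted p under 0.05, against 0.473% of all 16503 genes tested (78 genes, all higher). At an unadjusted p under 0.05 there were again 0 members, against 6.42% of all genes, and with voom weights 0 members were called too, as in the 3 other comparisons with control. XAB2 had the highest log2 fold change of the members, 0.67 ± 0.43 (SE, n = 2 against 2, 95% interval -0.40 to 1.74, limma adjusted p = 0.783). SF3A2 (0.60, interval -0.51 to 1.71) and SNRPB (0.41, interval -0.57 to 1.39) followed. The lowest were THOC1, a THO subunit (-0.19, interval -0.46 to 0.07), SF3B3, which lies beside SF3B1 in the U2 snRNP (-0.18, interval -0.41 to 0.06), and PRPF4 of the tri-snRNP (-0.17, interval -0.40 to 0.05). SF3B1, the branch point subunit that is often mutated in leukaemia, was at 27197 and 30613 in the control libraries, against 27169 and 24496 for BRG1-wt, a log2 fold change of -0.16 (interval -0.42 to 0.10). Its groups were just separate, whereas those of DHX15 (16951 and 19187 in control, 17044 and 15233 in BRG1-wt) overlapped. DHX9, a helicase that unwinds RNA and RNA-DNA hybrids, had a log2 fold change of -0.11 (interval -0.36 to 0.14), and THOC2, the large THO subunit, of -0.09 (interval -0.35 to 0.17). Both BRG1-wt libraries were above both control libraries in 5 members, against 17.6% of all genes, and below them in 13 members, against 20%. The 13 lower members had GC contents of 38.4% to 52.3%, and the 5 higher ones (SNRNP70, SNRPA, SF3B4, U2AF1 and PRPF31) of 52.1% to 63.4%. The count of called members rested on control a: without it, 8 members passed (14.8%), near the 14.3% of all genes that then passed, with 1 control library that is assumed to vary like the BRG1-wt libraries. XAB2 was among the 8, with a log2 fold change of 1.34 without control a and of -0.0036 without control b.

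BRG1-mut against control gave the largest log2 fold changes, and again no member passed. The test called 0 of 54 members and 0.0% of 16443 genes at an adjusted p under 0.05 by limma. The transfected SMARCA4, with a log2 fold change of 4.13, did not pass either (limma adjusted p = 0.103). The absence of called members therefore cannot show that their levels were unchanged. The study, which used DESeq2, did report affected genes in BRG1-mut, and its test was not repeated here. At an unadjusted p under 0.05 there were 9 members (16.7%), against 16.2% of all genes, so the share was near the background. All 9 were higher in BRG1-mut, namely PRPF31, SNRPA, SNRNP70, SF3A2, SNRPF, SF3B4, XAB2, SNRPB and SF1. How many of all genes at this threshold were higher was not counted, so their shared direction is no result about the members. Over all genes, the median log2 fold change was 1.37 in the 320 of highest GC content and -0.21 in the 319 of lowest. SF3A2 had a log2 fold change of 1.66 ± 0.50 (SE, n = 2 against 2, 95% interval 0.39 to 2.94, limma adjusted p = 0.294). That of XAB2 was 1.5 (interval 0.27 to 2.73) and that of SNRPB 1.24 (interval 0.17 to 2.32). PRPF31, a tri-snRNP protein whose mutations cause retinitis pigmentosa, was at 2934 and 2274 in the control libraries, below the BRG1-mut libraries at 4782 and 3866, and had the smallest p of the members (limma adjusted p = 0.294). SNRNP70, the U1 protein that binds U1 RNA, was at 6095 and 4770.0 in the control libraries, below the BRG1-mut libraries at 9299 and 7178. The lowest log2 fold changes were those of THOC1 (-0.25, interval -0.53 to 0.02), SF3B1 (-0.22, interval -0.49 to 0.04) and DHX9 (-0.21, interval -0.47 to 0.05). DHX9 was at 23972 and 26717 in the control libraries, above the BRG1-mut libraries at 20796 and 23058. DHX15 and THOC2 both had -0.20, with intervals of -0.48 to 0.09 and -0.50 to 0.10. Both BRG1-mut libraries were above both control libraries in 20 members, against 31.0% of all genes, and below them in 19 members, against 26.4%. The 20 higher members had a median GC content of 56.5% and the 19 lower ones of 40.3%. The count of called members changed in 2 settings. Without control a, 13 members passed (24.1%), beside 17.3% of all genes. Without control b, 0 members passed. The log2 fold change of SF3A2 was 2.33 without control a and 0.99 without control b, that of XAB2 2.17 and 0.83, and that of SNRPB 1.85 and 0.64. With scaling by the upper quartile, 3 members passed (SF3A2, XAB2 and SNRPB), which is 5.56%, beside 4.23% of all genes, while the median log2 fold change of all genes moved to -0.26 and that of the members relative to all genes stayed at 0.00089.

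No member passed in BRM-wt against control, where the 2 BRM-wt libraries lay far apart and intervals were wide (0 of 54, against 0.0% of 16483 genes at an adjusted p under 0.05 by limma), and 0 members had an unadjusted p under 0.05, against 2.39% of all genes. The transfected SMARCA2, with a log2 fold change of 12.8, did not pass either (limma adjusted p = 0.184), so here too the test could not show unchanged levels. The 95% interval of XAB2 ran from -2.79 to 3.04 around a log2 fold change of 0.13, and that of SF3A2 from -3.32 to 3.24. The highest log2 fold changes were those of PRPF31 (0.30, interval -0.75 to 1.35), SF3B4, the SF3B subunit affected in Nager syndrome (0.17, interval -0.75 to 1.09), and SNRPE, a Sm protein (0.14, interval -0.52 to 0.79). The lowest were those of THOC5 (-0.14), SNRNP200, the helicase that unwinds U4 from U6 (-0.13), and PRPF8, the scaffold of the catalytic core (-0.12). PRPF8 was at 36751 and 35512 in the control libraries, which lay between the BRM-wt libraries at 29486 and 37451. The intervals of the AT-rich members were narrower. DHX9 had a log2 fold change of -0.01 (interval -0.47 to 0.44), SF3B1 of -0.05 (interval -0.54 to 0.44), DHX15 of -0.06 (interval -0.48 to 0.36) and THOC2 of 0.04 (interval -0.51 to 0.59). Only U2AF1, the small U2AF subunit, had both BRM-wt libraries above both control libraries, against 9.53% of all genes. Its control libraries were at 5472 and 5403, and its BRM-wt libraries at 5729 and 5493. In 5 members (SF3B3, PRPF4, DHX8, THOC5 and EIF4A3) both libraries were below, against 9.19% of all genes.

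No member passed in BRM-mut against control, where SF3A2, SNRPB and XAB2 had log2 fold changes below 0. At an adjusted p under 0.05 by limma there were 0 of 54 members, against 0.00615% of 16254 genes (1 gene, SMARCA2), and at an unadjusted p under 0.05 there were 0 members, against 0.381%. The lowest log2 fold changes were those of SF3A2 (-0.98, interval -3.24 to 1.28), SNRPB (-0.62, interval -2.48 to 1.24) and XAB2 (-0.43, interval -2.34 to 1.48), and in all 3 the libraries of the groups overlapped. The highest were those of MAGOH, an exon junction protein (0.22, interval -0.30 to 0.75), SLU7, a second-step factor (0.18, interval -0.12 to 0.48), and CWC22, which recruits EIF4A3 to the spliceosome (0.18, interval -0.28 to 0.63). SLU7 was at 2681 and 2755 in the control libraries, below the BRM-mut libraries at 2936 and 3227. DHX15, DHX9, SF3B1 and THOC2 had log2 fold changes of 0.08, 0.07, 0.09 and 0.16, each with an interval that held 0. Both BRM-mut libraries were above both control libraries in 3 members (U2AF1, BCAS2 and SLU7), against 10.4% of all genes, and below them in 3 members (PRPF8, EFTUD2 and EIF4A3), against 8.84%.

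**Figure D2:**
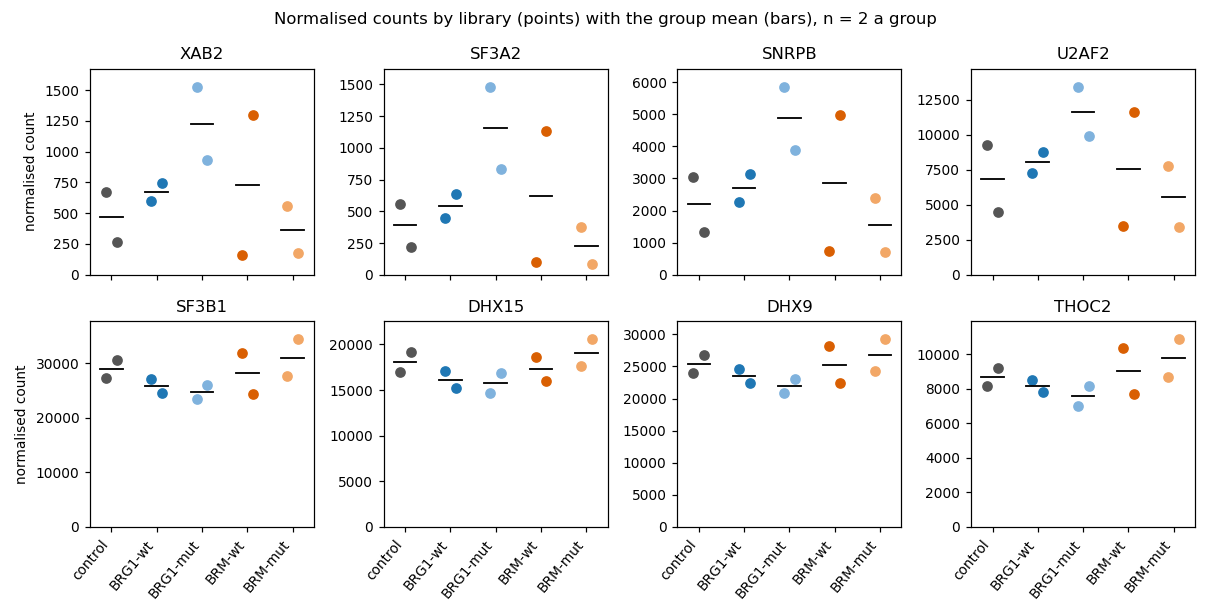
Normalised counts (y axis, from 0) of 8 members in each library, by group (x axis). Points are libraries and bars are group means of 2. In XAB2, SF3A2, SNRPB and U2AF2 the BRM-wt libraries lie far apart on either side of the control libraries, and the highest library of SF3B1, DHX15, DHX9 and THOC2 is 1.40 to 1.55 times the lowest.

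In BRG1-mut against control, 9 of the 12 U1, U2 and Sm proteins had a log2 fold change above 0 (median 0.19), as did 7 of the 10 SF3A, SF3B and 3′ splice site proteins (median 0.14), 4 of the 8 tri-snRNP proteins (median 0.00), 3 of the 10 PRPF19 complex and catalytic factors (median -0.18), 2 of the 9 helicases (median -0.10) and 2 of the 5 THO and exon junction proteins (median -0.03). None of these members passed. The median over the 54 members was -0.0044, beside -0.0056 over all genes tested. In BRG1-wt the median over the members was -0.03 with 24 above 0, beside 0.01 over all genes. In BRM-wt it was -0.03 with 21 above 0, beside -0.02, and in BRM-mut 0.01 with 31 above 0, beside -0.01. The number above 0 moved with the scaling, for example from 31 to 43 in BRM-mut under the upper quartile, so no direction is given for a list. All 4 comparisons share the 2 control libraries.

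**Figure D3:**
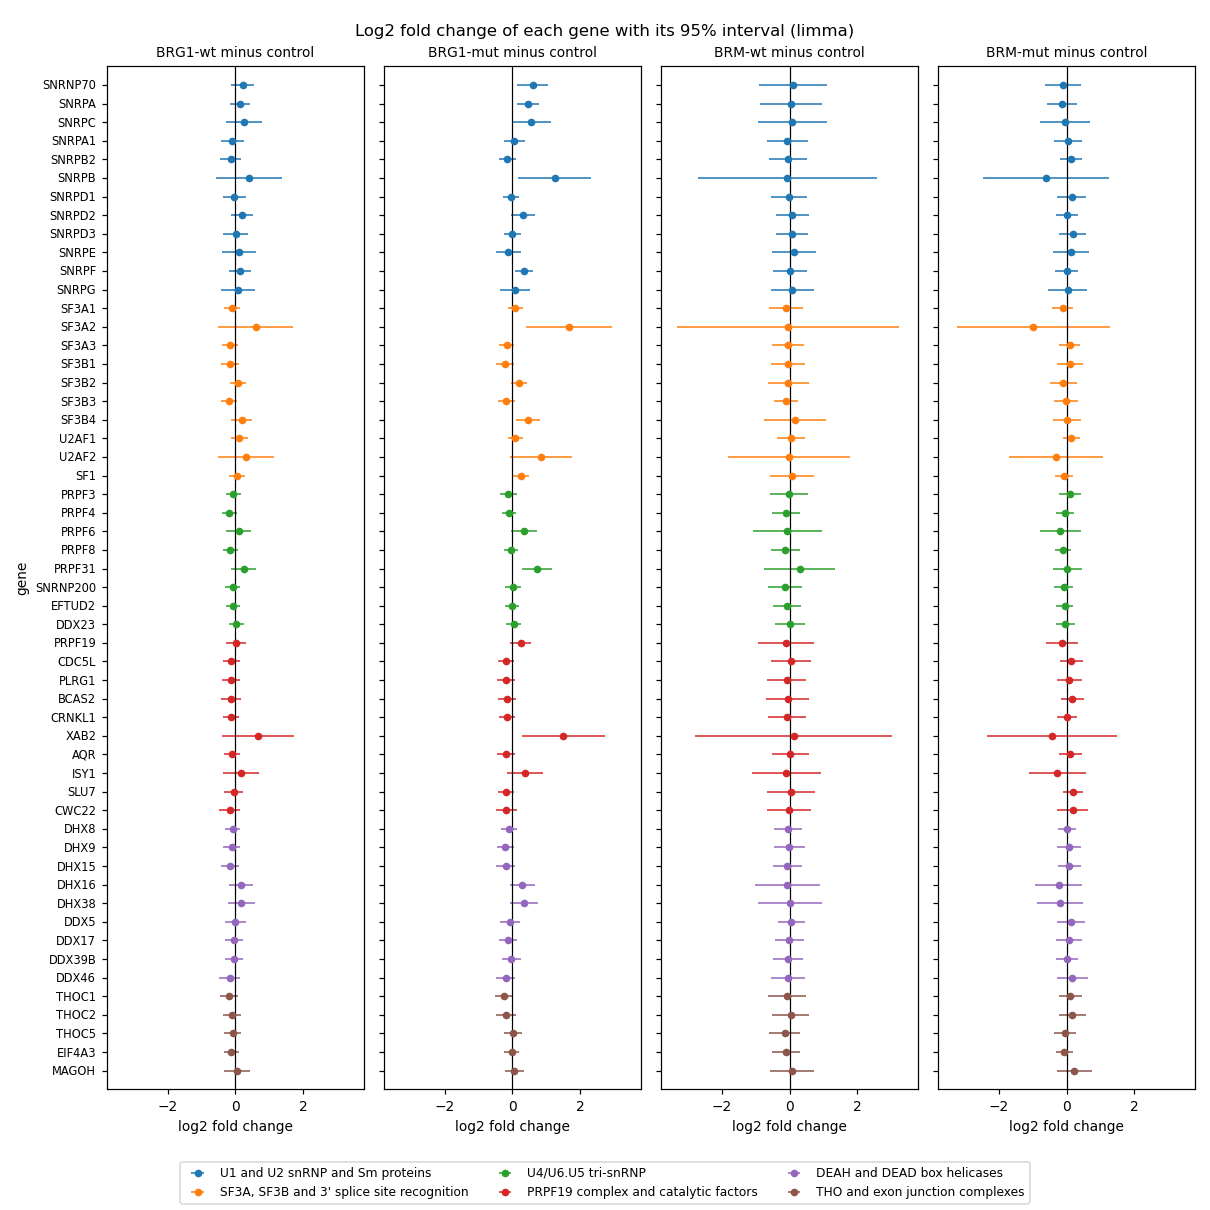
Log2 fold change (x axis) of each member (rows, coloured by list) against control in the 4 ATPase groups, with the 95% interval from limma as bars. Intervals are widest for SF3A2, XAB2 and SNRPB, and all intervals in BRG1-wt, BRM-wt and BRM-mut hold 0, while 9 in BRG1-mut do not.

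The log2 fold changes of the members followed GC content in 3 of the comparisons, and so did those of all genes. The Spearman coefficient with GC content was 0.67 across the 54 members and 0.51 across all genes in BRG1-wt, 0.82 and 0.74 in BRG1-mut, 0.02 and 0.04 in BRM-wt, and -0.84 and -0.63 in BRM-mut. After the median deviation of genes in the same GC bin was taken from each library, the largest log2 fold change of a member in BRG1-mut became 0.74 (SNRPB) in place of 1.66 (SF3A2), and that of SF3A2 became 0.33. That of XAB2 became 0.59, and that of PRPF31 0.14. SNRNP70 changed sign, from 0.60 to -0.56. The median standard error of the members fell from 0.21 to 0.08 in BRM-wt and from 0.11 to 0.07 in BRG1-mut. No member passed after the subtraction in any of the 4 comparisons (limma adjusted p under 0.05), and 2 members in BRG1-wt, 6 in BRG1-mut, 0 in BRM-wt and 1 in BRM-mut had an unadjusted p under 0.05, beside 10.7%, 10.3%, 5.49% and 0.837% of all genes. The genes that passed among all genes then numbered 247, 1, 7 and 1. For the 5 proteins that the study followed with antibodies, the subtracted log2 fold changes in BRG1-wt were -0.10 ± 0.06 for DHX15, -0.02 ± 0.05 for DHX9, -0.08 ± 0.05 for SF3B1, 0.0016 ± 0.06 for THOC2 and 0.30 ± 0.20 for XAB2 (SE, n = 2 against 2).

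**Figure D4:**
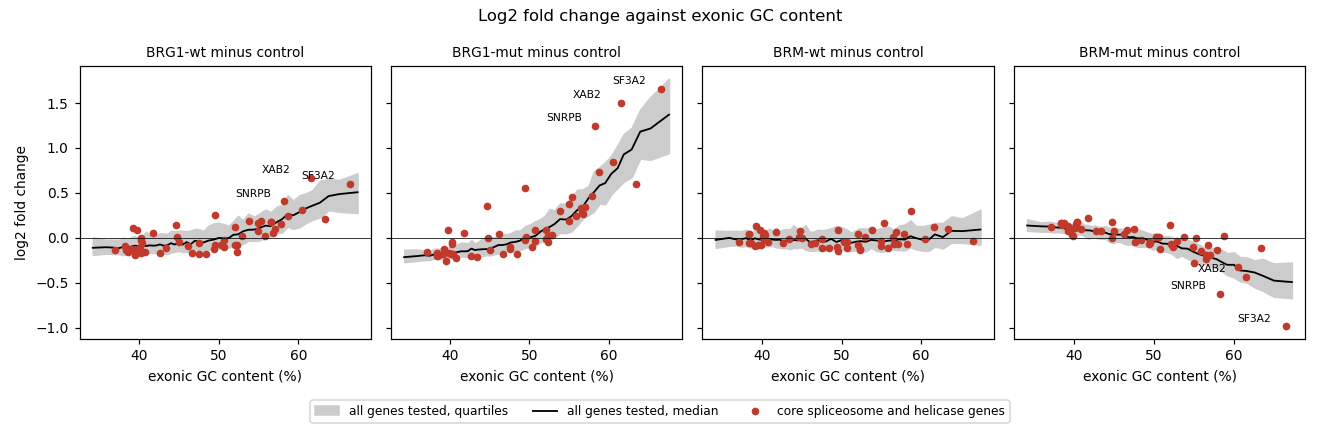
Log2 fold change against control (y axis) by GC content of the canonical transcript (x axis, percent) in the 4 ATPase groups. Red points are the 54 members, the line is the median and the band the quartiles of all genes tested in 50 bins, and the members follow the line upwards in BRG1-wt and BRG1-mut and downwards in BRM-mut.

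The ATPase groups were also compared with each other, the intact ATPase against its mutant and BRG1 against BRM. The mutants shared the vector of their intact form, but BRG1 (pBJ5) and BRM (pCG) did not share one. In BRG1-wt against BRM-wt the vector therefore cannot be told apart from the ATPase. No member passed in any of the 3 differences (limma, all 10 libraries in 1 fit, n = 2 a group). This fit gives all groups a common spread, although the BRM-wt libraries lay further apart than those of the BRG1 groups. With only the 4 libraries compared, 0 members were called again. The share of all genes called was then 0.884% in BRG1-wt against BRG1-mut and 0.0% in the other differences. In BRG1-wt against BRG1-mut, 0 of 54 members were called, against 0.109% of all 16509 genes, and 0 at an unadjusted p under 0.05, against 3.8%. XAB2 had a log2 difference of -0.84 (interval -3.13 to 1.46). Both BRG1-wt libraries were below both BRG1-mut libraries in 23 members, XAB2 among them, beside 29.4% of all genes, and above them in 4, beside 19.4%. In BRM-wt against BRM-mut, 0 members were called, against 0.267%, and 0 at an unadjusted p under 0.05, against 4.45%. In BRG1-wt against BRM-wt, 0 members were called, against 0.00606%, and 0 at an unadjusted p under 0.05, against 0.479%. The log2 difference of DHX15 was 0.04 (interval -0.28 to 0.35), -0.14 (interval -0.46 to 0.17) and -0.10 (interval -0.41 to 0.21) in these 3, and that of SF3B1 was 0.06 (interval -0.32 to 0.44), -0.14 (interval -0.52 to 0.24) and -0.11 (interval -0.49 to 0.26). For these genes, differences larger than the intervals were not seen, and smaller ones cannot be resolved with 2 libraries a group.

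No gene of the wider pathway passed either. Of 75 other spliceosome and export genes, such as the LSM proteins, the minor spliceosome proteins and the export factors NXF1 and ALYREF, 74 were measured and 0 passed in any of the 4 comparisons with control or the 3 differences (limma adjusted p under 0.05). Of all genes, 0.473% passed in BRG1-wt, 0.0% in BRG1-mut and in BRM-wt, and 0.00615% in BRM-mut. At an unadjusted p under 0.05 there was 1 in BRG1-wt (1.35%, beside 6.42% of all genes) and 11 in BRG1-mut (14.9%, beside 16.2%). There were 0 in BRM-wt, beside 2.39%, and 0 in BRM-mut, beside 0.381%. Their median log2 fold changes were -0.04, -0.04, -0.03 and 0.04.

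Splicing of the members themselves was listed in 18 entries of the 8 MISO tables, which is 0.347% of the 5191 entries in all. MISO estimates the PSI, the fraction of transcripts of a gene that include an exon, and each table sets 1 ATPase library against the control library of the same number (R1 or R2). The entries covered 9 exons in 8 members, all of which match an annotated exon and lie between an AG and a GT. An exon that is missing from a table did not pass the threshold of the authors and has no value there, so the entries are a description with no test. No read numbers behind a PSI were given, and its precision is unknown. BRG1-mut had 7 entries, BRM-wt 8, BRM-mut 2 and BRG1-wt 1. The median size of the change in PSI was 0.08 in the members, beside 0.25 over all entries. Both medians cover only entries past the threshold, and the members had higher levels than most genes (medians of 1971 and 208 per kilobase in control). The medians therefore cannot show that splicing of the members changed less, and the part of expression level was not tested.

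The 4 coding exons below are shown because the events with values in several libraries (PRPF6 and SF1), or the only helicase event (DHX8) and the shortest exon (SNRPG), lie in them. Coordinates are those of GRCh37, the sequence is that of the sense strand from 5′ to 3′, and the capitals mark the last 2 bases of the intron before and the first 2 bases of the intron after the exon.
PRPF6, chr20:62657292-62657411, plus strand: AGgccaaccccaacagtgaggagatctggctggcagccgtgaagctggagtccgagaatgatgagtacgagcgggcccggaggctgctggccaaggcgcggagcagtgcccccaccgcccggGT
SF1, chr11:64533423-64533627, minus strand: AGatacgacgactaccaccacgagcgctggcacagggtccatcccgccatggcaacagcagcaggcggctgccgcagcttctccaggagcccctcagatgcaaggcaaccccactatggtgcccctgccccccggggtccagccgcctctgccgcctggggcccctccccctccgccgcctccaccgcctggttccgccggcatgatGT
DHX8, chr17:41566817-41566902, plus strand: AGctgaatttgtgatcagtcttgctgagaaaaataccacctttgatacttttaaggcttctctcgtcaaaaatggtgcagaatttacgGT
SNRPG, chr2:70516482-70516504, minus strand: AGatttatggacaagaagttatcatGT
The exons of PRPF6 and SF1 are GC-rich (68.3% and 70.7%), while those of DHX8 (37.2%) and SNRPG (26.1%) are AT-rich. The PRPF6 exon has 120 nt, a multiple of 3, and the others have 205, 86 and 23 nt, which are not.

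The largest changes in PSI were in SNRPA1, which encodes the U2 A′ protein, and each was seen in 1 library only. Its coding exon of 47 nt (chr15:101827861-101827907, minus strand) had a PSI of 0.15 in control R2 and 0.68 in BRM-mut R2. Another exon of 101 nt, annotated as untranslated (chr15:101833498-101833598), had a PSI of 0.08 in control R2 and 0.48 in BRM-wt R2. SNRPA1 as a whole stayed between 828 and 1071 normalised counts over all libraries. THOC5, a THO subunit, had a PSI of 0.56 in control R2 and 0.73 in BRG1-mut R2 for an untranslated exon of 116 nt (chr22:29946717-29946832).

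The PRPF6 exon showed opposite changes in the replicates. PRPF6 is the tri-snRNP protein that bridges U5 with U4/U6. In R1 the PSI was 0.73 in control and 0.96 in BRG1-wt, 0.98 in BRG1-mut and 0.97 in BRM-wt, higher in all 3 against the same control library. In R2 it was 0.93 in control and 0.66 in BRM-wt, lower than the control. The 2 control libraries therefore differed by 0.20 in PSI, and the change in BRM-wt was 0.24 in R1 and -0.27 in R2.

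SF1, the branch point binding protein, and SNRNP70 gave small changes that were alike in BRG1-mut and opposite in BRM-wt. The SF1 exon was at 0.02 in control R1 and 0.08 in control R2. In BRG1-mut it was at 0.08 and 0.13, changes of 0.06 and 0.05. In BRM-wt it was at 0.10 in R1 and 0.00 in R2, changes of 0.08 and -0.08. A long SNRNP70 exon of 1474 nt (chr19:49605371-49606844, plus strand), which is annotated in a transcript subject to nonsense-mediated decay, was at 0.14 in both control libraries. It was at 0.18 and 0.20 in BRG1-mut, and at 0.19 and 0.11 in BRM-wt. Over all events listed in both replicates, the sign was the same for 92.4% of 145 (BRG1-mut) and for 4.44% of 293 (BRM-wt). Among member events it was the same for 2 of 2 (BRG1-mut) and 0 of 3 (BRM-wt). In BRG1-wt and BRM-mut no member event was listed in both replicates, and 52.6% of 57 and 56.2% of 48 events had the same sign. Whether the replicates that differ in PSI are the libraries that differ in GC content cannot be told, since the recovered counts carry no replicate number.

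The other 3 events were each listed once. DHX8, the helicase that releases the spliced mRNA, had a PSI of 0.97 in control R2 and 0.82 in BRM-wt R2. SNRPG, a Sm protein, had 0.84 in control R2 and 0.78 in BRG1-mut R2 for its 23 nt exon. EFTUD2, the GTPase of U5, had 1.00 in control R1 and 0.99 in BRM-mut R1 for an exon of 109 nt (chr17:42971785-42971893). None of the events lay in XAB2, DHX15, DHX9, SF3B1 or THOC2.

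**Figure D5:**
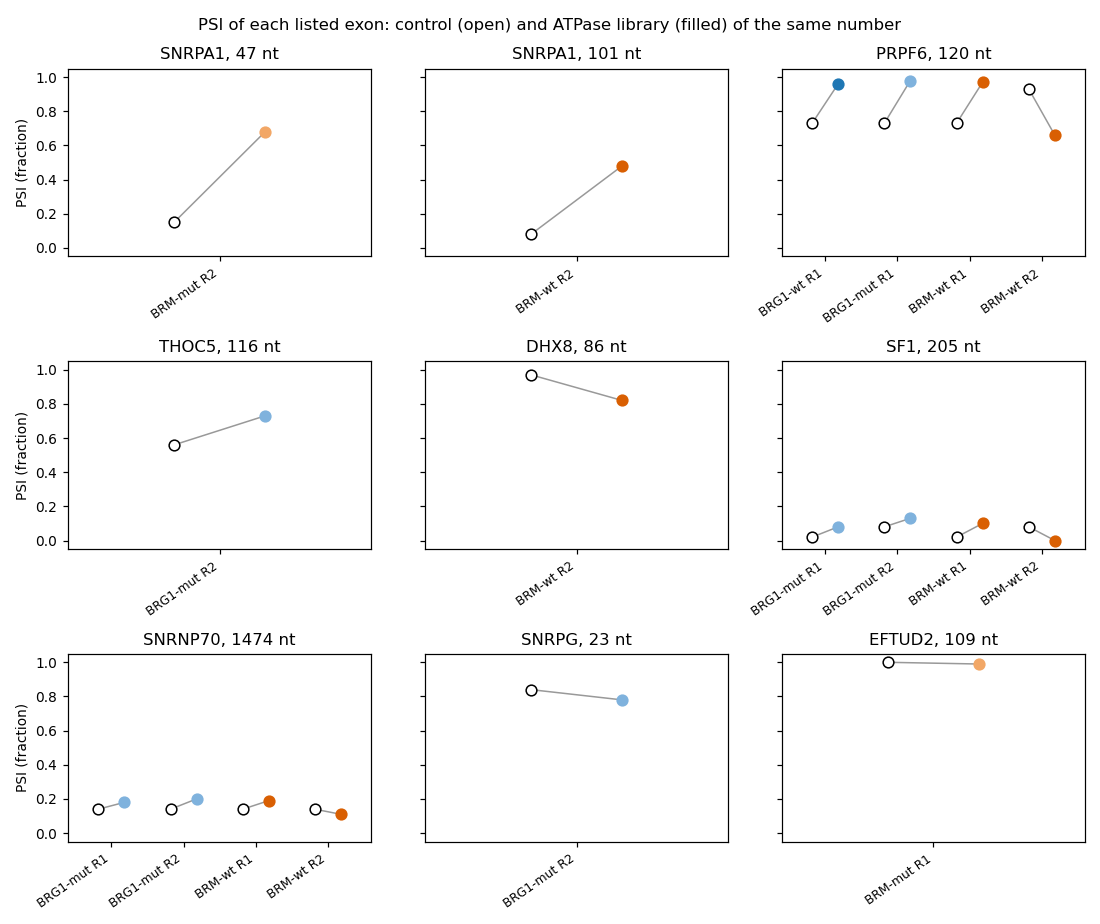
PSI (y axis, a fraction) of the 9 exons in the 8 members with an entry in the MISO tables, ordered by the size of the change. Open points are the control library and filled points the ATPase library of the same replicate number, joined by a line, and in PRPF6, SF1 and SNRNP70 the line falls in BRM-wt R2 where it rises in BRM-wt R1.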

How the data were processed

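Poly(A) RNA of 10 libraries (5 groups of 2) was analysed. The authors mapped reads with TopHat2 2.0.4 to GRCh37, counted reads per gene with HTSeq 0.6.1, ran DESeq2 and ran MISO. Per the file headers, each MISO table lists exon events with a Bayes factor above 10 and the PSI as a fraction (0 to 1) in 2 libraries. Each deposited expression table gives for 63152 genes the base mean, a signal that the authors computed as the mean over 4 libraries of counts divided by size factors. The other columns hold the fold changes, standard errors and p-values of the authors and, in the MISO tables, Bayes factors and log ratios. These were not used, nor was a further table that repeats that of BRG1-wt.

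The base means carry 15 digits and were resolved into whole counts per library by lattice reduction over the 4 tables, which share the 2 control libraries. The libraries whose counts recur in all 4 tables were taken as control, since the labels put only that group in every table. Of 32119 genes with a base mean above 0, 31600 (98.4%) were resolved. Genes that were not resolved include abundant ones and hold up to 7.22% of the summed base means. Size factors recomputed from the recovered counts differed by at most 0.0206% from those implied by the tables. The resolution was tested on simulated data first. The recovered counts are a reconstruction, and the libraries a and b have no replicate number.

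Counts were scaled by median-of-ratios size factors over the 10 libraries. Genes with a mean of at least 10 in the 4 libraries of a comparison were tested on log2(normalised count + 1) with limma 3.58.1 (trend) in R 4.3.3, adjusted by Benjamini-Hochberg over all genes tested. Fold changes are on that scale. Transcript lengths, GC content and coordinates come from GRCh37 with the GENCODE annotation (the canonical transcript). The fits were tested on simulated data without GC dependence. The members and lists were chosen with earlier results of these data known. The members named were 5 that the study followed with antibodies, the 3 highest and 3 lowest log2 fold changes of a comparison, the 3 highest and 3 lowest control levels and every member with a MISO event, and further ones with an unadjusted p under 0.05 or groups that do not overlap were named after their values were seen. Alternatives were pseudocounts of 0.5 and 5, no filter on low counts, other scalings, voom weights, 1 fit of all libraries, the GC trend subtracted in 50 bins, each library left out, and an adjusted p under 0.01. Python 3.11.15 was used with numpy 2.4.6, pandas 2.3.3 and scipy 1.17.1.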

Additional observations from a re-analysis of the deposited data

How the results depend on the processing

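No paired analysis was possible because the deposited expression values carry no replicate number. For the 4 comparisons with control, no member was called under the other pseudocounts, without the filter, with voom weights, with total count scaling, with 1 fit of all libraries, with the GC trend subtracted, under the stricter threshold or with the size factors of the deposited table, the last of which was added after the data were seen. For the 3 differences, no member was called with only the 4 libraries compared, with a pseudocount of 5 or with the GC trend subtracted. Scaling by the upper quartile called 3 members in BRG1-mut (5.56%, beside 4.23% of all genes). When each library was left out, the number called ranged from 0 to 8 in BRG1-wt and from 0 to 13 in BRG1-mut, each highest without control a (14.8% and 24.1% of the members, beside 14.3% and 17.3% of all genes), and was 0 in BRM-wt and BRM-mut. A lone library was then assumed to vary like the others. The 18 splicing entries became 6 when the PSI had to change by 0.2 or more, 10 for events listed in both replicates, and 8 to 10 with 1 replicate left out. With 2 libraries a group, small changes could not be resolved, and the causes of these shifts were not tested.

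The signs were compared for the members named by rule and for those with an unadjusted p under 0.05, which were added after the data were seen. Of their log2 fold changes under alternatives, 39 of 630 had the other sign, none of them called. With the GC trend subtracted these were 0.0016 for THOC2 in BRG1-wt against control, -0.044 for SNRPA in BRG1-mut against control, -0.56 for SNRNP70 in BRG1-mut against control, -0.092 for SF1 in BRG1-mut against control, 0.0092 for DHX9 in BRM-wt against control, -0.00055 for DHX15 in BRM-mut against control, -0.011 for SF3B1 in BRM-mut against control, -0.029 for DHX15 in BRG1-wt against BRG1-mut, -0.014 for SF3B1 in BRG1-wt against BRG1-mut, 0.010 for THOC2 in BRM-wt against BRM-mut. The others came from leaving out a library. In BRG1-wt against control the values then ran from -0.0036 to 1.34 for XAB2, from -0.068 to 1.27 for SF3A2, from -0.20 to 1.01 for SNRPB. In BRM-wt against control the values then ran from -1.37 to 1.63 for XAB2, from -0.17 to 0.050 for DHX15, from -0.18 to 0.15 for DHX9, from -0.24 to 0.15 for SF3B1, from -0.18 to 0.25 for THOC2, from -0.22 to 0.82 for PRPF31, from -0.27 to 0.61 for SF3B4, from -0.016 to 0.29 for SNRPE, from -0.34 to 0.073 for SNRNP200, from -0.29 to 0.052 for PRPF8. In BRM-mut against control the values then ran from -1.28 to 0.41 for XAB2, from -0.029 to 0.19 for DHX15, from -0.057 to 0.21 for DHX9, from -0.063 to 0.25 for SF3B1, from -0.026 to 0.47 for MAGOH, from -0.0076 to 0.36 for CWC22, from -2.07 to 0.11 for SF3A2, from -1.496 to 0.26 for SNRPB.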
